A study of Mus musculus with 12 samples.

Results

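The genes described here are the aryl hydrocarbon receptor, its dimer partner and 4 of its direct targets, which are 6 of the 25759 genes counted. They are Cyp1a1, Cyp1b1, Ahrr, Tiparp, Ahr and Arnt, chosen by name with earlier results of these data known. Each name was found on 1 line of the deposited gene table. All 6 passed the filter on low counts that left 12805 tested genes. Cyp1a1, with 4 to 10 counts in each untreated library, passed it only through the treated libraries. RNA from mouse gastric organoids, hollow balls of stomach epithelium cultured in a matrix, was sequenced in 12 libraries. Fusobacterium nucleatum, Helicobacter pylori or Neisseria subflava was present for 4 h in 3 libraries each, and 3 libraries were from untreated organoids. All organoids had been passaged once onto matrigel, in a medium without growth factors or antibiotics. The mouse strain, the number of animals, the bacterial dose and strain, and whether replicates came from separate cultures are not given in the sources used here, so p-values measure the spread between these libraries, which may be technical.

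The aryl hydrocarbon receptor is a transcription factor of the bHLH-PAS family that waits in the cytosol in a complex with HSP90 and other chaperones. It is opened by planar aromatic compounds, among them combustion products and indoles and kynurenines made from tryptophan by cells or bacteria. It then enters the nucleus, pairs with ARNT and binds DNA at a short core, GCGTG. Its best known targets are cytochromes P450 that break down such compounds, together with proteins that switch the receptor off. In gut and other barrier epithelia the pathway is known as a sensor of diet, microbes and pollutants.

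Libraries held 16955155 to 23236260 counts. The 17 listed markers of gastric epithelium summed to 27480 to 31570 TPM (a share of the library's transcripts, scaled for gene length) in every library, with Krt8, Cdh1 and Tff1 among the abundant ones and none at 0. The 13 fibroblast and smooth muscle markers summed to 10.4 to 15.3 TPM, and their ranges overlapped between all groups, with Pdgfrb at 0 in 8 libraries. The 9 immune markers found summed to 41.1 to 46.6 TPM with Fusobacterium, 29.4 to 32.4 with Neisseria, 24.4 to 25.1 with Helicobacter and 22.9 to 27.4 untreated, of which Cd68 made up most, while Ptprc, the pan-leukocyte marker, reached at most 1.02 TPM. The 6 endothelial markers stayed at or under 2.703 TPM. The 11 squamous markers summed to 128 to 132.1 TPM untreated, 115 to 121 with Helicobacter, 90.8 to 100.1 with Fusobacterium and 77.2 to 78.4 with Neisseria, and Trp63 was at 0 in 3 libraries. Pancreatic RNA set libraries apart: summed counts of the 15 islet markers were 3537 to 4161 without bacteria, 2985 for Helicobacter replicate 1 and 308 to 475 in the other 8 libraries. Pdx1 alone held 297 to 414 counts in every library, so it made up most of the islet counts in those 8. There 4 to 11 of the 15 islet markers were at 0, against none in the other libraries. The 18 acinar markers found held 849 to 1033 counts untreated, 659 in Helicobacter replicate 1 and 139 to 600 elsewhere, with Prss1 at 0 throughout. With Neisseria 11 or 12 of them were at 0, against 2 in Helicobacter replicate 1, while Cela1, Clps and Bhlha15 were above 0 in every library. The part of these other cell types in the results was not tested. The rises of Cyp1a1 and Ahrr with and without Helicobacter replicate 1 are given at the end. In bulk RNA, fewer cells of a type and less RNA per cell cannot be told apart.

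Of the 6 genes, 5 rose with Fusobacterium, 5 with Helicobacter and 5 with Neisseria, and Arnt did not pass the test in any of these comparisons. The 5 include Cyp1a1, which passed the filter on low counts only through the treated libraries. With Helicobacter they include Ahr, whose call was lost in some other settings, given with that gene. Among all tested genes, 32.8% were higher with Fusobacterium, 10.5% with Helicobacter and 25.4% with Neisseria at an adjusted p under 0.05 (the quasi-likelihood test of edgeR, Benjamini-Hochberg adjusted over all tested genes, used throughout), and 5.08% were higher with all 3. In either direction 65.3%, 18.9% and 50.8% passed. A test for any difference among the 4 groups passed for the same 5 of the 6 genes and for 80.8% of all genes. The 3 comparisons share the same untreated libraries. As the 6 genes were chosen with earlier results of these data known, the shares beside them do not measure an excess. Where groups are said below not to overlap, the share of all genes for which this holds was not counted. The bacteria did not rank the same way for each gene, so the targets are described one by one.

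The 4 targets were read against the DNA at their start sites, because all 4 rose together and the receptor is known to act through GCGTG. RefSeq windows of 300 bases, 250 before and 50 after the start (GRCm38.p6), were at hand for 5 of the 6 genes, with none for Ahr. Capitals mark GCGTG, or CACGC where it lies on the other strand, and each window is printed 5′ to 3′ on the gene's own strand. They lie at chr9:57697363-57697662 on the plus strand for Cyp1a1, chr17:79715012-79715311 on the minus strand for Cyp1b1, chr13:74292282-74292581 on the minus strand for Ahrr and chr3:65528197-65528496 on the plus strand for Tiparp.
Cyp1a1: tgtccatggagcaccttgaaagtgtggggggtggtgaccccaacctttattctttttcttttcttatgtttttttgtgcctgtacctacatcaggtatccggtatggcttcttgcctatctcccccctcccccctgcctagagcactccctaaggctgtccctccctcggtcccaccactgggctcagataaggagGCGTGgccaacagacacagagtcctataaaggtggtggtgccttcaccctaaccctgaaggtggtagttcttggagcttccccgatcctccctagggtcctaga
Cyp1b1: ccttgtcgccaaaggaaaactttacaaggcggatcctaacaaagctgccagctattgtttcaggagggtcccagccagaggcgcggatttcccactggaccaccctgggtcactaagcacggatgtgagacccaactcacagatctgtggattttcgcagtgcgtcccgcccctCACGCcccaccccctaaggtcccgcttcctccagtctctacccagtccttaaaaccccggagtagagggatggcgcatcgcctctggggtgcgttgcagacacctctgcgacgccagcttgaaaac
Ahrr: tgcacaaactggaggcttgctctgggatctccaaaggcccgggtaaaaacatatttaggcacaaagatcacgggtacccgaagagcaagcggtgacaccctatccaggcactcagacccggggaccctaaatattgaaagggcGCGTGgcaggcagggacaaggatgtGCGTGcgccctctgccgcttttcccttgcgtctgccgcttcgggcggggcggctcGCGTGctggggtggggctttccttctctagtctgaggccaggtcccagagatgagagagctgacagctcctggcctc
Tiparp: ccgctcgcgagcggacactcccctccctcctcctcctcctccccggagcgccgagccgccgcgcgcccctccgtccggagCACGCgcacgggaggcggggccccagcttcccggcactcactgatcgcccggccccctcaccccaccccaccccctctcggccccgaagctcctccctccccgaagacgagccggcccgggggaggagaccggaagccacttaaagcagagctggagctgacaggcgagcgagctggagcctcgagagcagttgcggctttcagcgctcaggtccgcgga
The window of Cyp1a1 held 1 match, starting at base -54 from the start site, that of Cyp1b1 held 1 at -76 on the other strand, and that of Tiparp held 1 at -170 on the other strand. Ahrr held 3 matches on its own strand, at -107, -82 and -27. The window of Arnt, a gene that did not pass the test, also held 1, at -29 (chr3:95434140-95434439, plus strand). Among 32851 windows of the same length, 32.4% held at least 1 match on either strand and 3.91% held 3 or more, so 1 match is common. The longer form TTGCGTG, found in 1.16% of all windows, and ACGTG, found in 19.6%, were in none of the 5. HIF with ARNT is known to bind both ACGTG and GCGTG, so the GCGTG matches also carry the letters of its core. GC content was 54% in the Cyp1a1 window, 58.3% in that of Cyp1b1, 60.3% in that of Ahrr and 73.7% in that of Tiparp, against a median of 52.7%. More distant sites were not read.

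**Figure D1:**
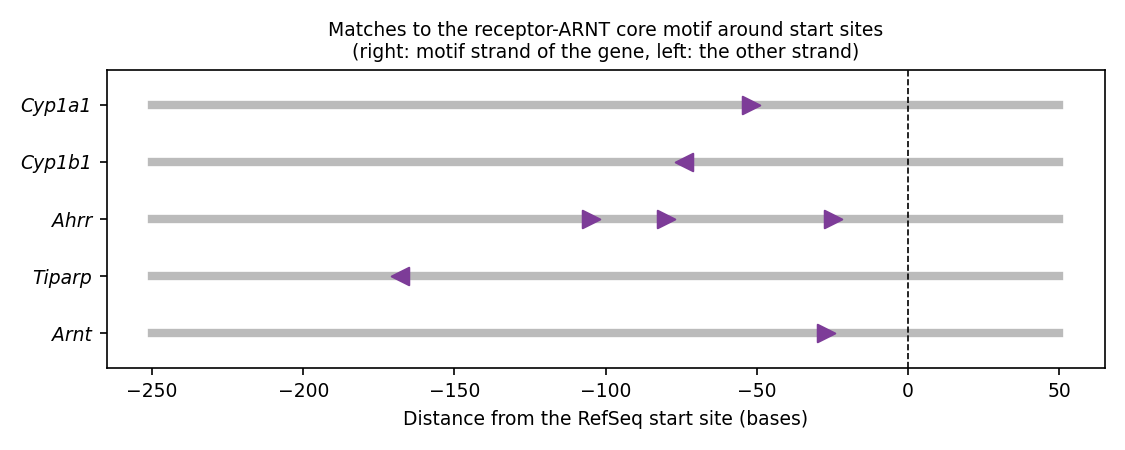
Matches to GCGTG on either strand (triangles, pointing right on the gene's own strand) in the windows of 5 genes, by distance in bases from the RefSeq start site (dashed line). Ahrr has 3 matches and the other 4 genes, Arnt included, have 1 each.

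Cyp1a1 encodes the cytochrome P450 best known as the receptor's marker target, which oxidises polycyclic aromatic compounds and also clears receptor ligands (ENSMUSG00000032315, chromosome 9, 57687928 to 57703824, plus strand). Untreated libraries had 0.218, 0.192 and 0.411 TPM, from 6, 4 and 10 counts. With Fusobacterium the libraries had 155, 157 and 163 TPM, with Neisseria 97.6, 100.4 and 99.7 TPM, and with Helicobacter 40.1, 46.7 and 42.5 TPM. No library of any group overlapped with another group, and the order was Fusobacterium, Neisseria, Helicobacter and untreated. In untreated organoids the gene was close to silent: its 20 counts over the 3 libraries have an exact 95% Poisson interval of 12.2 to 30.9, which covers counting error only. The log2 fold changes from untreated were 9.11 ± 0.11 (SE), 8.67 ± 0.11 and 7.36 ± 0.12 with Fusobacterium, Neisseria and Helicobacter (adjusted p = 5.86e-26, 1.43e-25 and 7.48e-23). These were the largest rise of all 12805 tested genes with Fusobacterium and with Helicobacter, and rank 2 with Neisseria. Because Cyp1a1 passed the filter on low counts only through the treated libraries, its tests and ranks against untreated serve as description only. On a log2(TPM + 5) scale, which shrinks changes of low genes, the log2 changes were 4.95, 4.31 and 3.19. The bacteria differed from each other by more than the replicate spread: Fusobacterium exceeded Neisseria by 0.44 ± 0.05 on the log2 scale (adjusted p = 7.28e-08), and Neisseria exceeded Helicobacter by 1.31 ± 0.05 (adjusted p = 1.98e-15). Between Fusobacterium and Neisseria 4 of the 6 genes differed, 1 higher and 3 lower with Fusobacterium, against 66.6% of all genes (32.5% higher, 34.1% lower). Between Fusobacterium and Helicobacter 5 differed, 3 higher and 2 lower, against 65.3% (31.8% and 33.5%). Between Neisseria and Helicobacter 5 were higher with Neisseria, against 36.7% that differed, 19.0% higher and 17.7% lower.

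Cyp1a2, the paralog that lies beside Cyp1a1 in the opposite orientation and responds with it in liver, was not switched on. It had 6 counts over all 12 libraries, at most 2 in any library and 0 in 9 of them. Edc3, the nearest tested gene on the other side (4716 bases away), rose by 0.42 ± 0.06 with Fusobacterium, 0.42 ± 0.06 with Helicobacter and 0.58 ± 0.06 with Neisseria (adjusted p = 1.56e-06, 1.67e-05 and 1.77e-08). Csk, the nearest tested gene on the Cyp1a2 side (34297 bases away), changed by 0.06 ± 0.06, -0.06 ± 0.06 and -0.28 ± 0.06 (adjusted p = 0.416, 0.563 and 0.000639). Neighbours of the 6 genes were looked up after the values had been seen.

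Cyp1b1 encodes a second cytochrome P450 of the family, which acts on aromatic compounds and on oestrogens (ENSMUSG00000024087, chromosome 17, 79706953 to 79715041, minus strand). It was well expressed before any treatment, with 75.9, 76.6 and 73.7 TPM. It reached 412, 436 and 440.4 TPM with Neisseria, 381, 406 and 372 TPM with Helicobacter, and 260.4, 256 and 262 TPM with Fusobacterium. The groups did not overlap, and here Fusobacterium was lowest of the bacteria. The log2 fold changes were 2.71 ± 0.04 with Neisseria, 2.46 ± 0.04 with Helicobacter and 1.75 ± 0.04 with Fusobacterium (adjusted p = 3.87e-25, 1.84e-23 and 2.68e-21). With Fusobacterium the gene was lower than with Helicobacter by a log2 difference of -0.705 ± 0.03 (adjusted p = 3.8e-14), the opposite direction to Cyp1a1, for which the same comparison gave 1.75 ± 0.05 (adjusted p = 7.48e-18). Neisseria exceeded Helicobacter by 0.26 ± 0.03 (adjusted p = 2.03e-06).

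Ahrr encodes the repressor of the receptor, a relative that pairs with ARNT without activating genes and so forms a feedback loop (ENSMUSG00000021575, chromosome 13, 74211118 to 74292331, minus strand). Untreated libraries had 0.808, 0.814 and 0.842 TPM, from 38, 29 and 35 counts. Libraries with Neisseria had 10.5, 12.8 and 13.6 TPM, those with Helicobacter 11.7, 11.2 and 10.5 TPM, and those with Fusobacterium 9.27, 9.37 and 8.01 TPM. All treated libraries were above all untreated ones, Fusobacterium was below the other bacteria, and Neisseria and Helicobacter overlapped. The rises were 4.10 ± 0.13, 3.86 ± 0.13 and 3.40 ± 0.13 on the log2 scale (adjusted p = 3.55e-18, 8.12e-17 and 5.41e-16). Fusobacterium was below Helicobacter by -0.46 ± 0.09 (adjusted p = 0.00014) and below Neisseria by -0.70 ± 0.09 (adjusted p = 5.17e-07). The difference of 0.24 ± 0.09 between Neisseria and Helicobacter passed narrowly (adjusted p = 0.0382) and did not pass with no scaling beyond the library total (adjusted p = 0.241), nor without Helicobacter replicate 2 or 3 or Neisseria replicate 2 or 3 (adjusted p = 0.0811, 0.0941, 0.118 and 0.178).

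Exoc3, a subunit of the vesicle-tethering exocyst, lies 2386 bases beyond the 3′ end of Ahrr on the same strand (chromosome 13, 74169488 to 74208732). Its level was 21.3 ± 1.21 TPM untreated (SD, n = 3), 27.6 ± 1.06 with Fusobacterium, 32.1 ± 0.886 with Helicobacter and 33.5 ± 1.04 with Neisseria. It rose by 0.34 ± 0.06, 0.69 ± 0.05 and 0.86 ± 0.05 (adjusted p = 1.06e-05, 1.15e-09 and 3.42e-12), which is the same order of bacteria as for Ahrr. Whether reads beyond the end of Ahrr entered its count was not tested. Pdcd6, which lies 11178 bases on the other side, changed by -0.18 ± 0.05, 0.37 ± 0.05 and 0.25 ± 0.05 in the same 3 comparisons (adjusted p = 0.0033, 8.82e-06 and 0.000253).

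Tiparp encodes an enzyme that attaches single ADP-ribose units to proteins, including the receptor, whose activity it lowers (ENSMUSG00000034640, chromosome 3, 65528410 to 65555518, plus strand). Untreated libraries had 10.7, 10.6 and 9.58 TPM. Libraries with Neisseria had 208, 229.6 and 222 TPM, those with Fusobacterium 185, 191 and 190.4 TPM, and those with Helicobacter 58.4, 64.6 and 55.9 TPM. The groups were fully separate, with Helicobacter far below the other bacteria. The log2 rises were 4.62 ± 0.05 with Neisseria, 4.17 ± 0.05 with Fusobacterium and 2.63 ± 0.05 with Helicobacter (adjusted p = 1.22e-26, 5.92e-26 and 1.15e-21). Fusobacterium was below Neisseria by -0.45 ± 0.04 (adjusted p = 1.01e-09), again opposite in direction to Cyp1a1, and above Helicobacter by 1.53 ± 0.04 (adjusted p = 1.36e-18). In the annotation a pseudogene on the opposite strand overlaps 970 bases of Tiparp, and the use of strand in counting is not given in the sources used here, so reads from it cannot be told apart. The same holds for a lincRNA on the opposite strand over 618 bases of Ahr and a processed pseudogene on the same strand over 352 bases of Arnt.

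**Figure D2:**
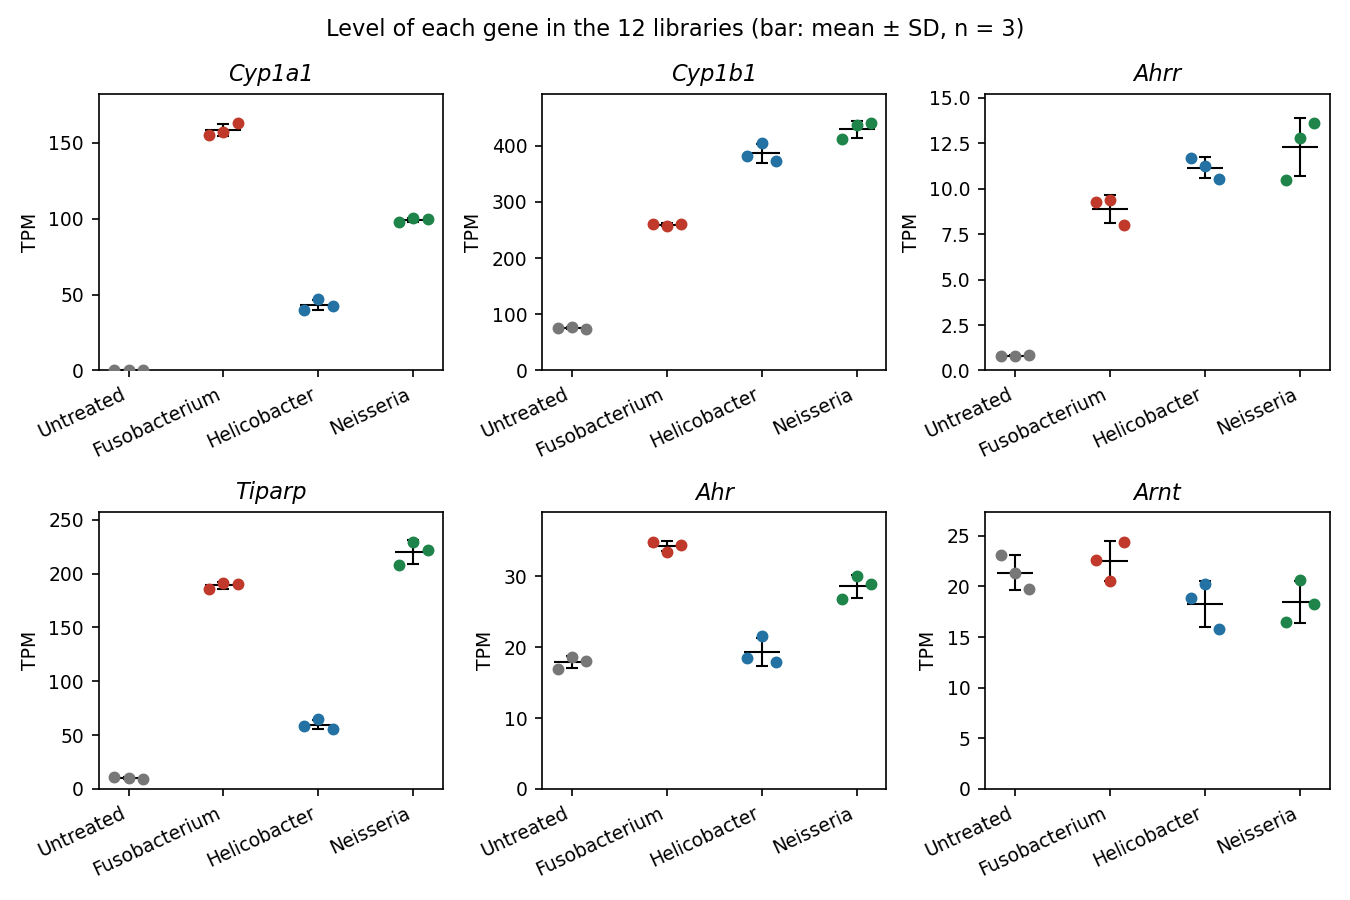
TPM of each of the 6 genes in the 12 libraries (points), with the mean and SD of each group of 3 (bars), on linear axes that start at 0. Cyp1a1 is highest with Fusobacterium (155 to 163 TPM), Cyp1b1 and Tiparp are highest with Neisseria, and the groups of Arnt lie close together.

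Ahr encodes the receptor itself (ENSMUSG00000019256, chromosome 12, 35497974 to 35535038, minus strand). Untreated libraries had 16.9, 18.7 and 18.03 TPM. The libraries with Fusobacterium had 34.9, 33.4 and 34.3 TPM, those with Neisseria 26.8, 30.0 and 28.9 TPM, and those with Helicobacter 18.4, 21.5 and 17.9 TPM. Fusobacterium and Neisseria lay above untreated in every library, whereas Helicobacter overlapped with untreated. The log2 rises were 0.91 ± 0.06 with Fusobacterium and 0.88 ± 0.06 with Neisseria (adjusted p = 5.61e-12 and 1.27e-11). The change of 0.21 ± 0.06 with Helicobacter passed (adjusted p = 0.0191) but did not pass without Helicobacter replicate 2 (0.15, adjusted p = 0.0891), without untreated replicate 1 (0.16, adjusted p = 0.132) or with no scaling beyond the library total (0.15, adjusted p = 0.103). Fusobacterium and Helicobacter differed by 0.70 ± 0.06 (adjusted p = 4.68e-10) and Neisseria and Helicobacter by 0.67 ± 0.06 (adjusted p = 2.49e-09). The receptor's own change was thus under 2-fold with any bacterium, at 1.88-fold, 1.84-fold and 1.16-fold.

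Whether Ahr differed between Fusobacterium and Neisseria depended on the scaling. Its TPM did not overlap between them, yet the count test gave 0.03 ± 0.06 (adjusted p = 0.714, 95% interval -0.09 to 0.14). With no scaling beyond the library total the difference was 0.20 (adjusted p = 0.00517), and with limma on log2(TPM + 1) it was 0.25 (adjusted p = 0.00639). The TMM scaling factors were 1.05 in the 3 Fusobacterium libraries and 0.916 to 0.933 in the 3 Neisseria libraries. Without them the median change of all genes between these groups moved from -0.01 to 0.17, and genes higher with Fusobacterium went from 48.7% to 65.9% of those called. In the comparison of Neisseria with untreated organoids the median moved from -0.02 to -0.18, and the share of higher genes from 49.9% to 26.9%. Between Neisseria and Helicobacter the median moved from -0.02 to -0.12 and the share of higher genes from 51.8% to 28.5%. With Helicobacter against untreated, the share went from 55.8% to 32.1%. With limma on log2(TPM + 1), the shares of higher genes in these 4 comparisons were 70.8%, 22.9%, 29.1% and 24.7%, and between Fusobacterium and Helicobacter the share was 63.0% against 48.7%. Cyp1a1, Cyp1b1 and Tiparp kept direction and call in all comparisons under these scalings.

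Arnt encodes the shared partner, which pairs with the receptor and also, as HIF-1β, with the hypoxia factors (ENSMUSG00000015522, chromosome 3, 95434388 to 95497240, plus strand). Untreated libraries had 23.1, 21.3 and 19.7 TPM, and those with Fusobacterium 22.6, 20.5 and 24.4 TPM. Those with Helicobacter had 18.9, 20.2 and 15.8 TPM, and those with Neisseria 16.5, 20.6 and 18.2 TPM. Every treated group overlapped with untreated. The log2 changes were 0.04 ± 0.08 with Fusobacterium (95% interval -0.12 to 0.20), -0.13 ± 0.08 with Helicobacter (-0.29 to 0.03) and -0.01 ± 0.08 with Neisseria (-0.17 to 0.15), with adjusted p = 0.67, 0.304 and 0.903. Fusobacterium and Helicobacter did not overlap in TPM, and their log2 difference of 0.17 ± 0.08 missed the threshold (adjusted p = 0.0768). It passed with no scaling beyond the library total (0.24, adjusted p = 0.0201), without Fusobacterium replicate 2 (0.23, adjusted p = 0.0318) and without Helicobacter replicate 2 (0.21, adjusted p = 0.0389).

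**Figure D3:**
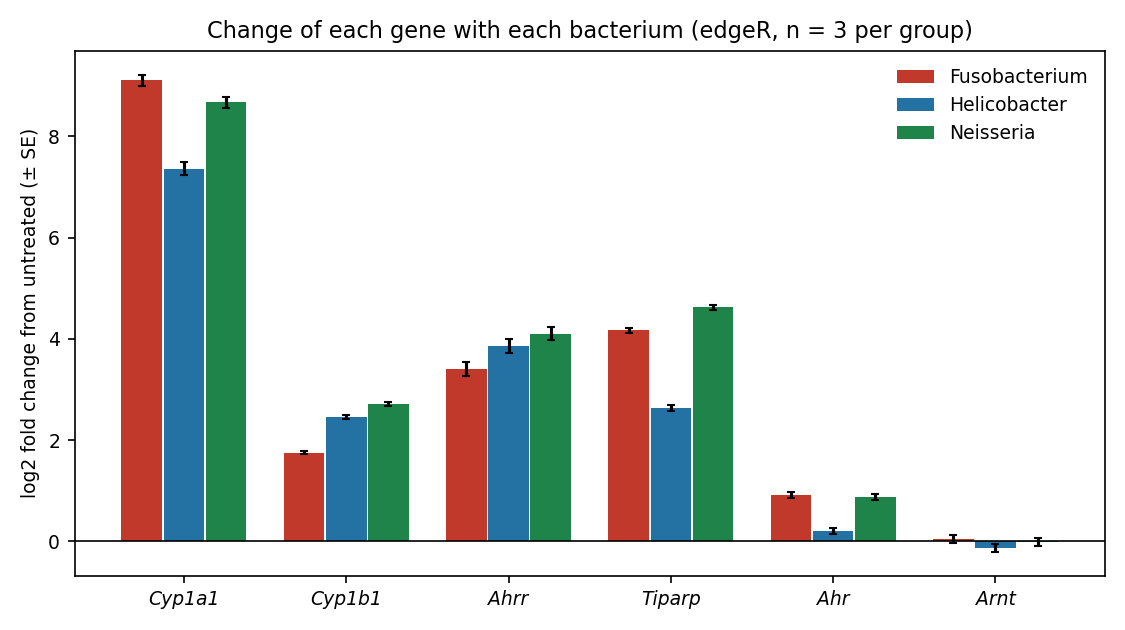
Log2 fold change from untreated organoids (bars) with its SE (whiskers) for each gene and bacterium, from edgeR with 3 libraries per group. Cyp1a1 has the tallest bars (7.36 to 9.11), Ahr stays under 1 and the bars of Arnt lie between -0.13 and 0.04.

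Set beside one another within a library, the targets changed in different proportions, which no difference in depth between libraries can alter. The TPM ratio of Cyp1a1 to Ahrr was 17.95 ± 2.07 with Fusobacterium (SD, n = 3), 8.16 ± 1.01 with Neisseria and 3.88 ± 0.39 with Helicobacter, against 0.331 ± 0.137 untreated. The ratio of Cyp1a1 to Cyp1b1 was 0.611 ± 0.013 with Fusobacterium, 0.231 ± 0.00517 with Neisseria and 0.112 ± 0.00562 with Helicobacter. For both ratios the bacteria did not overlap and Fusobacterium was highest. The ratio of Cyp1a1 to Tiparp put Neisseria lowest instead, at 0.452 ± 0.0157 against 0.724 ± 0.0367 with Helicobacter and 0.839 ± 0.0158 with Fusobacterium. Cyp1b1 and Ahrr kept closest to each other: their ratio was 29.4 ± 2.89, 35.2 ± 3.57 and 34.7 ± 1.81 with Fusobacterium, Neisseria and Helicobacter, and the 3 ranges overlapped at least in part, while untreated organoids had 91.8 ± 3.75. The transcript of the repressor stood at 0.046 ± 0.00217 of that of the receptor in untreated organoids, and at 0.26 ± 0.0242 with Fusobacterium, 0.43 ± 0.04 with Neisseria and 0.583 ± 0.0568 with Helicobacter.

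**Figure D4:**
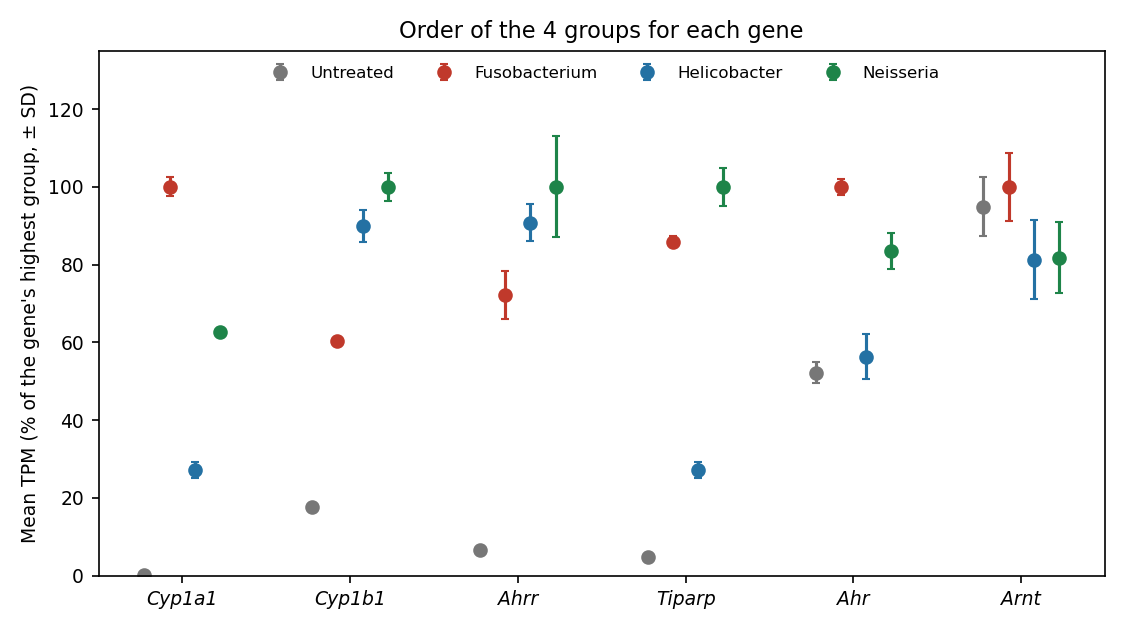
Mean TPM of each group as a percentage of the gene's highest group, with the SD over 3 libraries. Helicobacter stands at 27.2% for Cyp1a1 and 27.1% for Tiparp but at 89.9% for Cyp1b1 and 90.7% for Ahrr.

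Across the 12 libraries, Cyp1b1 and Ahrr had a Pearson r of 0.987 on log2(TPM + 1), and no other gene of the 10067 that reach 5 TPM in a group had a higher r with Cyp1b1. Cyp1a1 and Tiparp had r = 0.970, and Ahr had r = 0.861 with Tiparp and 0.791 with Cyp1a1. Arnt had r from -0.445 to 0.280 with the other 5. These values describe 12 libraries that fall into 4 groups, so r mostly reflects the group means. Among the 3 genes of most similar pattern to Tiparp were Slc2a1 (r = 0.9905) and Adm (0.9898), and among the 3 most like Cyp1a1 were Psmd8 (0.988) and Cdkn2b (0.975). Slc2a1, a glucose transporter, went from 75.6 ± 3.61 TPM untreated to 251 ± 7.98 with Fusobacterium, 177 ± 10.8 with Helicobacter and 316 ± 11.8 with Neisseria. Slc2a1 and Adm, a vasoactive peptide, are known as targets of HIF, which also pairs with ARNT. Whether HIF or the receptor acted on any of these genes was not tested. For Ahrr the nearest were the glycolytic gene Aldoc (0.988), Cyp1b1 and the glycolytic gene Pkm (0.975), and for Cyp1b1 they were Ahrr, Mxi1, a MYC antagonist (0.986), and Exoc3 (0.975). Ahr was most like Mgat4b (0.995), Pvr (0.992) and Vps35 (0.989), and Arnt was most like Dyrk2 (0.970), Uba6 (0.951) and Rexo1 (0.931).

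Around these genes, 7 lists of the pathway were counted, with the 6 genes themselves left out. The wider xenobiotic battery of enzymes and transporters did not follow the 4 targets as a block. Of 24 tested members of 27, 10 rose and 9 fell with Fusobacterium, where 32.8% of all genes rose and 32.4% fell. With Helicobacter 8 rose and 1 fell (10.5% and 8.36% of all genes), and with Neisseria 9 rose and 4 fell (25.4% and 25.5%). The median log2 change was 0.10, 0.09 and 0.08, against -0.003, 0.002 and -0.02 over all genes. These counts and medians include Abcc2, which passed the filter on low counts only through the Fusobacterium libraries. It had 14 to 26 counts in each of those and 2 in each untreated library, and its own test is not used. Cyp2s1, a P450 of epithelia, rose least with Fusobacterium, as Cyp1b1 did: from 27.2 ± 1.56 TPM to 41.7 ± 1.49 with Fusobacterium, 73.6 ± 7.76 with Helicobacter and 69.3 ± 2.89 with Neisseria, with log2 changes of 0.59 ± 0.06, 1.54 ± 0.06 and 1.56 ± 0.06 (adjusted p = 1.69e-08, 1.51e-15 and 2.19e-16). Nqo1, a quinone reductase that NRF2 also controls, rose by 0.94 ± 0.04, 0.39 ± 0.04 and 0.35 ± 0.04 from 365 ± 3.09 TPM. Por, which hands electrons to P450 enzymes, rose by 0.94 ± 0.04, 0.69 ± 0.04 and 0.90 ± 0.04 from 169 ± 3.48 TPM. Nqo1 and Por passed in all 3 comparisons, with adjusted p of 4.72e-08 or less.

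Other members of the battery are given for comparison, chosen after their values were seen. Aldh3a1, an aldehyde dehydrogenase that the receptor induces in liver cells, was already at 537 ± 9.51 TPM untreated and changed by -0.01 ± 0.04 with Fusobacterium (adjusted p = 0.856), 0.23 ± 0.04 with Helicobacter (adjusted p = 0.000159) and 0.14 ± 0.04 with Neisseria (adjusted p = 0.00502). Ugt1a6a, a glucuronosyltransferase, changed by -0.59 ± 0.05 with Fusobacterium (adjusted p = 8.06e-11), and by 0.11 ± 0.04 and -0.001 ± 0.04 with Helicobacter and Neisseria (adjusted p = 0.1 and 0.985). In TPM, Aldh3a1 was lower with Neisseria (506 to 520) than untreated (528 to 547), the opposite direction to the count test. Ugt1a6a was also lower in TPM with Neisseria, at 163 to 170 against 188 to 194 untreated. For both genes the reading with Neisseria thus depended on the scaling. Members of the Ugt1a cluster share exons, so their counts are uncertain. Nfe2l2, which encodes NRF2, fell by 0.78 ± 0.04 with Fusobacterium (adjusted p = 7.43e-15) and rose by 0.33 ± 0.04 with Helicobacter (adjusted p = 2.45e-07). Mean TPM of Gsta2 went from 108 untreated to 212 with Fusobacterium, and that of Gstp1 from 1253 to 2327. Gstm1 went from 567.5 TPM untreated to 283.6 with Neisseria. In the whole list 10 genes rose and 9 fell with Fusobacterium.

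Of 32 tested genes of 39 that are known from mouse or human cells to respond to ligands of the receptor, 19 rose and 9 fell with Fusobacterium, 13 rose and 2 fell with Helicobacter, and 17 rose and 6 fell with Neisseria. Over all genes the shares higher and lower were 32.8% and 32.4%, 10.5% and 8.36%, and 25.4% and 25.5%. The list's median log2 changes were 0.59, -0.0004 and 0.51, against -0.003, 0.002 and -0.02 over all genes. These counts and medians include Cd274, which passed the filter on low counts only through treated libraries. It had 42 to 50 counts per library with Fusobacterium and 7 to 21 untreated, and its own test is not used. Selenbp1, a selenium-binding protein that oxidises methanethiol, rose by 1.16 ± 0.06 with Fusobacterium, 2.05 ± 0.06 with Helicobacter and 2.84 ± 0.06 with Neisseria, from 39.3 ± 0.842 to 89.7 ± 6.42, 152 ± 8.75 and 244 ± 7.56 TPM (adjusted p = 2.89e-13, 1.22e-17 and 4.42e-21). Nfil3, a bZIP repressor, rose by 1.86 ± 0.10, 1.36 ± 0.10 and 3.27 ± 0.09 (adjusted p = 1.62e-13, 5.73e-10 and 5.92e-19). Ereg, a ligand of the EGF receptor, rose by 1.74 ± 0.04, 0.44 ± 0.05 and 0.86 ± 0.04 (adjusted p = 1.45e-19, 1.14e-07 and 8.93e-14). Stc2, a secreted glycoprotein of stress responses, fell by 0.62 ± 0.04 with Fusobacterium and rose by 0.69 ± 0.04 and 1.48 ± 0.04 with Helicobacter and Neisseria (adjusted p = 1.29e-11, 5.18e-12 and 3.3e-19). Many of these genes answer to other signals as well.

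Of the 8 genes of the cytosolic complex and its partners, 2 rose and 5 fell with Fusobacterium (32.8% and 32.4% of all genes), 1 rose with Helicobacter (10.5%) and 2 rose with Neisseria (25.4%). Their median log2 changes were -0.15, 0.04 and 0.05, against -0.003, 0.002 and -0.02 over all genes. Src, a kinase held in the complex, fell with Fusobacterium by 1.28 ± 0.05 from 82.5 ± 3.44 to 34.6 ± 1.44 TPM (adjusted p = 4.45e-16), and changed by 0.01 ± 0.05 and 0.11 ± 0.05 with Helicobacter and Neisseria (adjusted p = 0.872 and 0.0569). Hsp90aa1, which encodes an HSP90 chaperone, rose by 0.43 ± 0.04 with Fusobacterium (adjusted p = 2.65e-09). The co-chaperone gene Cdc37 rose by 0.35 ± 0.04 and the phosphatase gene Ppp5c fell by 0.39 ± 0.05 with Fusobacterium (adjusted p = 6.01e-08 and 1.05e-06). Of 6 tested genes of nuclear transport and turnover of the receptor, 1 rose and 4 fell with Fusobacterium, none passed with Helicobacter, and 2 rose and 2 fell with Neisseria, where 65.3%, 18.9% and 50.8% of all genes passed in either direction. Of all genes 32.8%, 10.5% and 25.4% rose, and 32.4%, 8.36% and 25.5% fell. The list's median log2 changes were -0.21, -0.02 and 0.0002, against -0.003, 0.002 and -0.02 over all genes. Cul4b, a scaffold of the ubiquitin ligase that the receptor is known to join, fell by 0.89 ± 0.05 with Fusobacterium (adjusted p = 3.71e-13), and the importin gene Kpnb1 by 0.63 ± 0.04 (adjusted p = 1.13e-12). The exportin gene Xpo1 fell by 0.26 ± 0.04 with Fusobacterium and rose by 0.28 ± 0.04 with Neisseria (adjusted p = 6.07e-06 and 2.59e-06, the second not passing with limma on TPM, adjusted p up to 0.193), and Tbl3 rose by 0.28 ± 0.06 with Fusobacterium (adjusted p = 9.64e-05).

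Genes for the other bHLH-PAS proteins, most of which can compete for ARNT or related partners, were counted next. Of 8 tested genes of 13 listed, 5 rose and none fell with Fusobacterium, 3 fell and none rose with Helicobacter, and 3 rose and 3 fell with Neisseria. Over all genes the shares higher and lower were 32.8% and 32.4%, 10.5% and 8.36%, and 25.4% and 25.5%. The list's medians were 0.66, -0.02 and 0.21 on the log2 scale, against -0.003, 0.002 and -0.02 over all genes. These counts and medians include Sim2 and Hif3a, which passed the filter on low counts only through treated libraries. Sim2 had 10 to 16 counts per library with Fusobacterium and 0 to 3 untreated. Hif3a had 16 to 18 with Helicobacter, 19 to 39 with Neisseria and 3 to 11 untreated. Their own tests are not used. Hif1a went from 49.2 ± 1.27 TPM to 82.0 ± 1.06 with Fusobacterium, 35.4 ± 3.0 with Helicobacter and 37.6 ± 2.98 with Neisseria, changes of 0.70 ± 0.05, -0.38 ± 0.05 and -0.19 ± 0.05 (adjusted p = 6.34e-12, 3.45e-06 and 0.00233). Epas1, which encodes HIF-2α, changed by 1.35 ± 0.13, -0.48 ± 0.14 and -0.66 ± 0.14 (adjusted p = 2.15e-09, 0.018 and 0.000529), and its call with Helicobacter was lost without Helicobacter replicate 3 or untreated replicate 3 (adjusted p = 0.0761 and 0.087). The direct comparison of Fusobacterium with Neisseria gave 0.89 ± 0.05 for Hif1a and 2.01 ± 0.13 for Epas1 (adjusted p = 1.08e-13 and 6.3e-12). The clock gene Arntl rose by 1.89 ± 0.08 with Fusobacterium, from 12.7 ± 0.596 to 48.1 ± 2.71 TPM, and by 0.61 ± 0.09 with Neisseria (adjusted p = 3.5e-15 and 3.18e-06). Its relative Arntl2 rose by 0.40 ± 0.10 with Fusobacterium (adjusted p = 0.000959).

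Of 12 coactivators and corepressors, 3 rose and 7 fell with Fusobacterium, 3 fell with Helicobacter and 6 fell with Neisseria, where 65.3%, 18.9% and 50.8% of all genes passed in either direction. Of all genes 32.8%, 10.5% and 25.4% rose, and 32.4%, 8.36% and 25.5% fell. The list's median log2 changes were -0.29, -0.18 and -0.29, against -0.003, 0.002 and -0.02 over all genes. Nrip1, a corepressor that ligands of the receptor are known to draw to it, fell by 0.98 ± 0.07, 0.46 ± 0.06 and 0.44 ± 0.06 with Fusobacterium, Helicobacter and Neisseria (adjusted p = 7.05e-12, 1.13e-05 and 3.58e-06). Crebbp, an acetyltransferase gene, fell by 0.99 ± 0.09 with Fusobacterium (adjusted p = 6.39e-10), the corepressor gene Tle3 by 0.58 ± 0.06 with Fusobacterium and 0.59 ± 0.06 with Neisseria (adjusted p = 2.1e-08 and 2.47e-08), and Rb1, the retinoblastoma gene, rose by 0.80 ± 0.09 with Fusobacterium (adjusted p = 2.42e-08).

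Genes that could supply ligands from tryptophan were mostly silent. Only 10 of 21 were tested, and Kynu, Haao, Qprt and Aadat were at 0 TPM in all groups. Ido1, which opens the kynurenine route, was too low to be tested, at 0.526 ± 0.178 TPM with Fusobacterium and under 0.2 TPM as a mean in the other groups. Its relative Ido2 had 26, 11 and 33 counts with Neisseria and 2, 11 and 3 untreated, so it passed the filter on low counts through the Neisseria libraries, and its test there is not used. The tryptophan transporter subunits Slc7a5 and Slc3a2 rose with Neisseria by 1.52 ± 0.06 and 1.11 ± 0.04 (adjusted p = 1.4e-16 and 1.18e-16) and with Helicobacter by 0.67 ± 0.06 and 0.31 ± 0.04 (adjusted p = 5.79e-09 and 8.85e-06), and with Fusobacterium Slc7a5 rose by 0.40 ± 0.06 (adjusted p = 2.34e-06) while Slc3a2 changed by -0.03 ± 0.04 (adjusted p = 0.55). The decarboxylase gene Ddc fell by 0.96 ± 0.30 with Neisseria (adjusted p = 0.0105), a call lost without Neisseria replicate 2 or untreated replicate 2 (adjusted p = 0.0669 and 0.0568). Over the 10 tested genes, 2 rose with Fusobacterium (32.8% of all genes), 2 with Helicobacter (10.5%), and 3 rose, Ido2 among them, and 3 fell with Neisseria (25.4% and 25.5%). Their median log2 changes, Ido2 included, were -0.03, -0.16 and 0.05, against -0.003, 0.002 and -0.02 over all genes. Slc7a5 is also in the xenobiotic list and Ido1 in that of ligand-responsive genes.

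**Figure D5:**
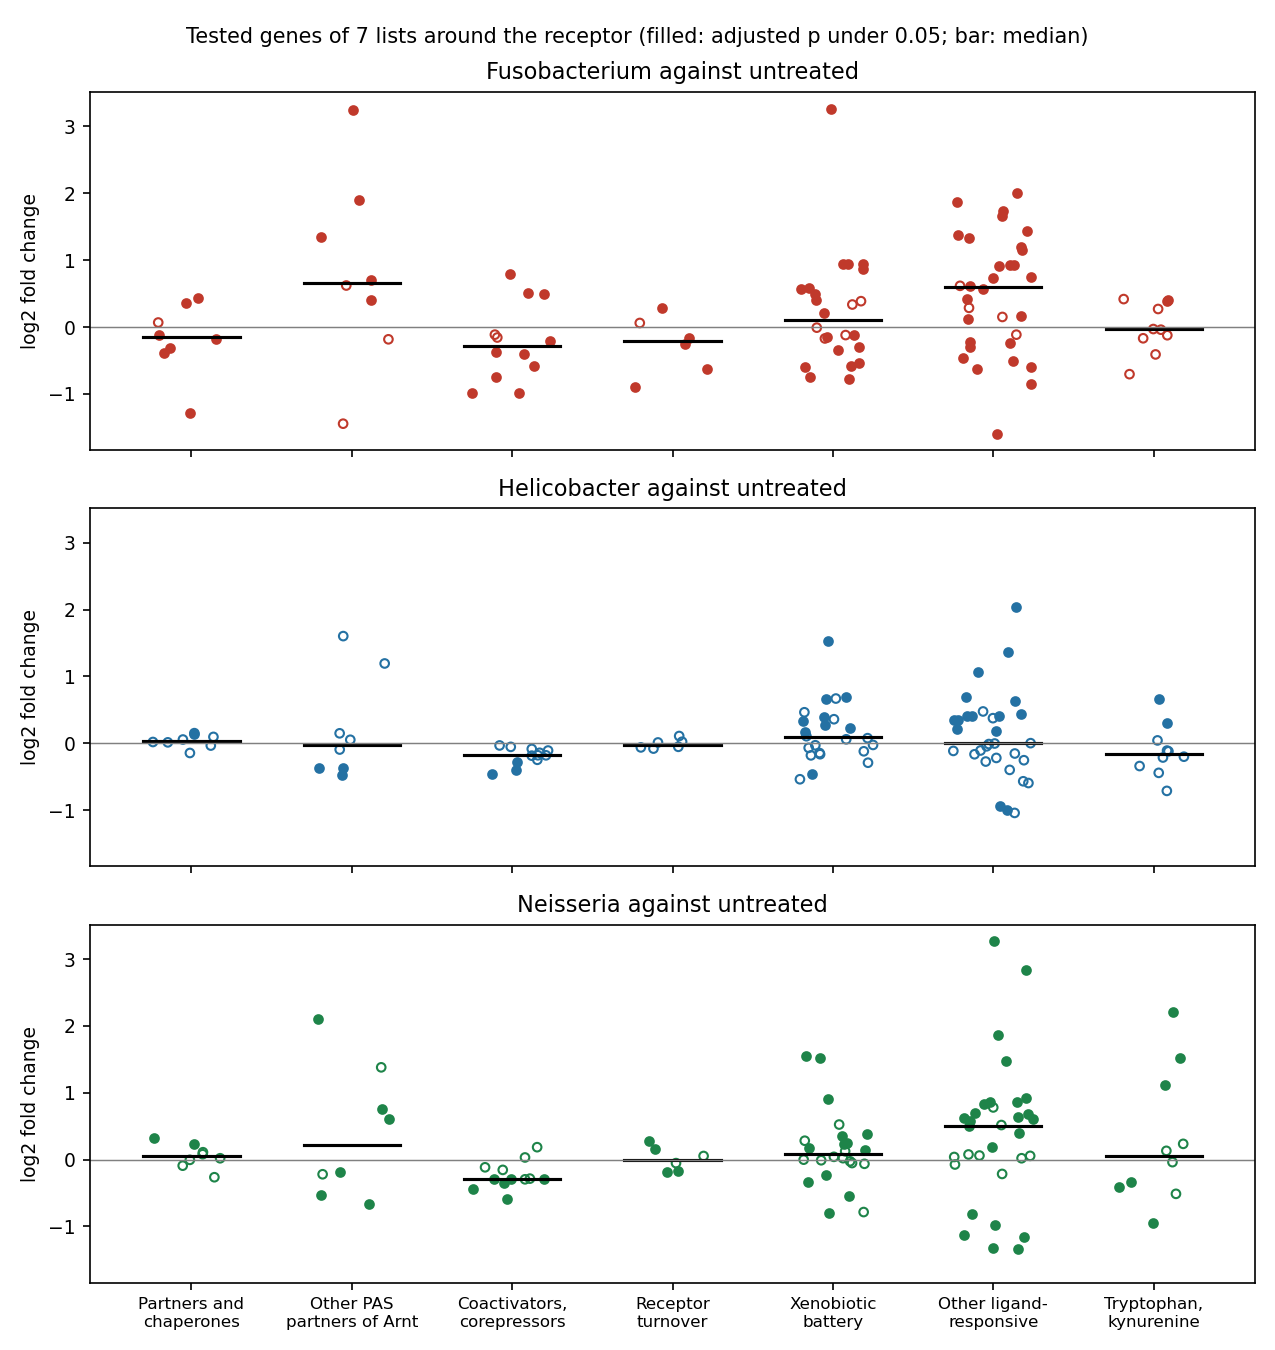
Log2 fold change from untreated of each tested gene of the 7 lists (points, filled where the adjusted p is under 0.05), with the list's median (bar), for each bacterium. Points spread to both sides of 0 in most lists, and no tested gene of them rose by as much as Tiparp did with Fusobacterium or Neisseria.

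The pancreatic RNA moved with the untreated group in all comparisons with Fusobacterium and Neisseria, so its part there cannot be told apart from that of the bacteria. With Helicobacter it differed between libraries: replicate 1 held 2985 islet counts and replicates 2 and 3 held 475 and 308. Cyp1a1 was at 40.1 TPM in replicate 1 and at 46.7 and 42.5 TPM in the others, and without replicate 1 its rise was 7.41 against 7.36 with it. The rise of Ahrr was 3.82 without it and 3.86 with it. Whether pancreatic RNA had a part in any rise was not tested. The column headers carry a mark L0 for Helicobacter replicate 3 and untreated replicate 3 and L1 for the other 10 libraries. With the L1 libraries alone the rises of Cyp1a1 were 9.53, 7.77 and 9.09 with Fusobacterium, Helicobacter and Neisseria.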

How the data were processed

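RNA was measured in 12 libraries, grouped by their labels into 4 groups of 3. Total counts (whole numbers, not normalized) and TPM were both deposited by the authors, in columns so named per the file headers. The submitters' processing notes name GRCm38. How reads were aligned and counted, and whether by strand, is not given in the sources used here. Another 24 deposited columns (RPKM and CPM) were not used.

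Counts were fitted with edgeR 4.0.16 in R 4.3.3 (default filter, TMM scaling, robust quasi-likelihood, all 12 libraries in 1 model without a replicate block) on 12805 genes, with a threshold of 0.05 on the Benjamini-Hochberg adjusted p, two-sided and with no fold minimum. SE is the size of the log2 change divided by the square root of F, and 95% intervals are the change ± 1.96 SE. The script was tested on simulated data. Replicates differed by more than counting noise (chi-square per degree of freedom 2.26 to 10.5), so none was taken as the same library sequenced again. This cannot show whether they came from separate cultures. Alternatives were DESeq2 1.42.0, limma 3.58.1 on log2(TPM + 0.1, 1 or 5), other scalings, no filter, only the groups compared, a replicate block, only L1 libraries, and leaving out each library.

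The genes and lists were chosen with earlier results of these data known. From each list, up to 4 genes past the threshold against untreated organoids with the smallest adjusted p and a mean of at least 1 TPM in the highest group are named, and any others are said to be. Genes of similar pattern are the 3 with the highest Pearson r among genes of at least 5 TPM in a group, of which 1 is not reported here. Promoter windows are from RefSeq (GRCm38.p6). GENCODE M21 gave overlapping genes and the same start and end as the table for 5 of the 6 genes, all but Cyp1b1.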

Additional observations from a re-analysis of the deposited data

How the results depend on the processing

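Of 792 repeats of the comparisons of the 6 genes, 762 kept direction and call, 16 lost a call, 14 gained one and 0 reversed. Cyp1a1, Cyp1b1 and Tiparp kept every call. The rise of Ahr with Helicobacter lost its call with the library total only (0.15), with limma at pseudocounts of 1, 0.1 and 5 (0.10, 0.10 and 0.083) and with only the groups compared (0.21, adjusted p = 0.0578), and ranged from 0.15 to 0.23 with 1 library left out. With the library total and the same 3 limma settings, differences became calls for Ahr between Fusobacterium and Neisseria (0.20, 0.25, 0.26 and 0.23), for Arnt between Fusobacterium and Neisseria (0.23, 0.28, 0.29 and 0.23) and for Arnt between Fusobacterium and Helicobacter (0.24, 0.29, 0.30 and 0.24; 0.094 to 0.23 with 1 library left out). The difference of Ahrr between Neisseria and Helicobacter lost its call in the same 4 settings (0.13, 0.12, 0.13 and 0.095) and with L1 libraries only (0.22), and ranged from 0.18 to 0.32 with 1 library left out. The cause was not tested. Genes called with Helicobacter numbered 2419, and 1594 to 3136 with 1 library left out (1594 and 1596 without untreated replicate 1 or 2). Among pathway genes, the change of Tbl3 with Neisseria reversed with the library total (-0.014) and limma (-0.051, -0.052 and -0.045), that of Cdc37 with Neisseria with limma (-0.12, -0.12 and -0.11), and that of Kpnb1 between Neisseria and Helicobacter with the library total (-0.10). Labels do not say that replicate numbers pair libraries, and correlations of same-numbered libraries lay between -0.096 and 0.092. Each Helicobacter library correlated best with the untreated library of its own number (0.016, 0.08 and 0.092), a weak hint from the data only. The reverse search was not made, and replicate 3 of both groups carries the mark L0. With a replicate block, 5, 5 and 5 of the 6 genes were called against untreated, as without it, and 8369, 2560 and 6535 of all genes. The 4 to 10 untreated counts of Cyp1a1 limit the precision of its folds.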
